A study of Mus musculus with 4 samples.

Results

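The mitochondrial respiratory chain was examined in a mouse mammary carcinoma line, 4T1, in cells labelled positive or negative for CD44v8-10, a splice form of the surface receptor CD44 that carries variant exons. Genes were taken as members when the platform's gene symbol began with Nduf, Sdh, Uqcr, Cox4, Cox5, Cox6, Cox7, Cox8 or Atp5, and each gene was represented by its brightest probe set over the 4 arrays. This gave 94 genes of 18193 genes named by probe sets with a single symbol. They comprised 35 genes of complex I, 4 of complex II, 8 of complex III, 16 of complex IV, 17 of complex V and 14 assembly or accessory factors. Membership was decided by symbols only, while the probe set of each gene was picked by its measured brightness. Earlier results of these data were known when the set was chosen.

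Each group had 2 samples, whose total RNA was measured on 4 Affymetrix arrays of a single colour, and the design asked how far the 2 expression profiles differ. All samples were the same line, kept in RPMI 1640 medium with serum under normoxia, with cells picked by hand, and no treatment, genotype or time distinguished the groups. The labels do not say that the replicates were grown separately, so p-values reflect only the spread among these samples, and that spread may be technical. As a check of the labels, Esrp1, the splicing regulator that promotes inclusion of Cd44 variant exons, had normalized signals of 1348 and 1365 in positive cells, against 64.1 and 30.9 in negative cells, while the Cd44 probe set used had 3550 and 2840 against 3050 and 2827.

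The respiratory chain passes electrons from NADH (complex I) and succinate (complex II) through ubiquinone to complex III, then through cytochrome c to complex IV, where oxygen is reduced to water. Complexes I, III and IV pump protons across the inner mitochondrial membrane, and complex V, the ATP synthase, uses the returning protons to make ATP. Most subunits are encoded in the nucleus, and NRF1 and GABP are textbook activators of their promoters. Tumour cells combine this pathway with glycolysis in proportions that vary between lines.

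Sequence motifs of both activators were searched in the RefSeq promoter windows (GRCm38.p6) of the members, from 250 bases before to 50 bases after each start site, on both strands. Windows were found for 78 of the 94 genes, 83 windows in all, and some of these genes were too dim to be tested. The canonical palindromic NRF1 motif was in those of 6 genes (7.69%), against 2.24% of 9640 tested genes with a window. Counted by window it was in 7.23% of the members' windows, against 0.971% of all 32851 windows. All windows, here and below, include those of genes not tested on these arrays, so they are a wider set than the tested genes. The GABP motif CCGGAAG, a 7-letter ETS-type site, was in those of 22 genes (28.2%), against 19.9% of tested genes. By window the shares were 26.5% for the members and 8.86% for all windows. The motif of YY1, another regulator of mitochondrial genes, was in those of 4 genes (5.13%), against 1.78% of tested genes. By window the shares were 4.82% and 0.633%. A match is a description of the letters and not a shown binding site. Cox6a1 and Atp5k were the 2 members with both the NRF1 and the GABP motif. Atp5h is shown for a GABP motif in a gene whose positive arrays lay below its negative arrays. It was picked by its values, and a link between motif and difference was not tested. The bases before the start site follow, 5′ to 3′ on the gene's strand (minus for all of them), with capitals marking the motifs (CTTCCGG is the GABP motif read on the other strand). They lie at chr5:115348959-115349208 for Cox6a1, chr5:108434400-108434649 for Atp5k, whose GABP motif lies after the start site and is not shown, and chr11:115419920-115420169 for Atp5h.
Cox6a1: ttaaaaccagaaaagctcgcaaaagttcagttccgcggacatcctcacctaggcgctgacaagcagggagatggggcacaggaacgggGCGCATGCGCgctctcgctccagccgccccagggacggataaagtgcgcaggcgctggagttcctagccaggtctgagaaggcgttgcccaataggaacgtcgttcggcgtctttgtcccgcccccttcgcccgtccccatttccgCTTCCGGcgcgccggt
Atp5k: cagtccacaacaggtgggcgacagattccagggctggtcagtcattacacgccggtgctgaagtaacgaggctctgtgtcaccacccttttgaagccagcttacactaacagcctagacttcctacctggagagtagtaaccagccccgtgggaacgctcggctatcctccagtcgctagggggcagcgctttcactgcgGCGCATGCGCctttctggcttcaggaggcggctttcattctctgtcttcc
Atp5h: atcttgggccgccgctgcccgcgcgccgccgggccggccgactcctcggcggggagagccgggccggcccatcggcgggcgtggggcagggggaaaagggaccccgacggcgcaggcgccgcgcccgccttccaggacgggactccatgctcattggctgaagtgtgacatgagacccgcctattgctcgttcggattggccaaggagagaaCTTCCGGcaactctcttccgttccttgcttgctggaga

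No member differed between the groups past the threshold. Members with a mean signal above the level set for dim probe sets, a normalized signal of 19.4, numbered 87, and limma called 0 of these 87 higher or lower (two-sided, Benjamini-Hochberg over 11956 genes, threshold 0.05), where it called 9 of all genes tested, or 0.0753%. All 9 were higher in positive cells, and with arrays centred on their medians 20 were higher and 5 lower. The lowest adjusted p of a member was 0.985. At an unadjusted p under 0.05 there was 1 member lower and none higher by limma, where 4.45% of all genes passed, 1.76% lower and 2.68% higher. Log2 differences, positive minus negative, on the log2(signal + 16) scale ran from -0.38 to 0.27, and the lowest is a 1.30-fold difference.

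The members' standard errors tended to be smaller than those of all genes tested. Their median was 0.17, against 0.24 over all genes. The members were also brighter, with a median log2 signal of 11.6, against 8.18. The prior variance of the test followed intensity, and no comparison with equally bright genes was made. For all 87 tested members the 95% interval of the difference lay within 2-fold in either direction, and for 68 it lay within 1.5-fold. Over all genes tested this held for 9167 and 3185 of 11956. These intervals cover the spread between arrays and not the choice of scaling.

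**Figure D1:**
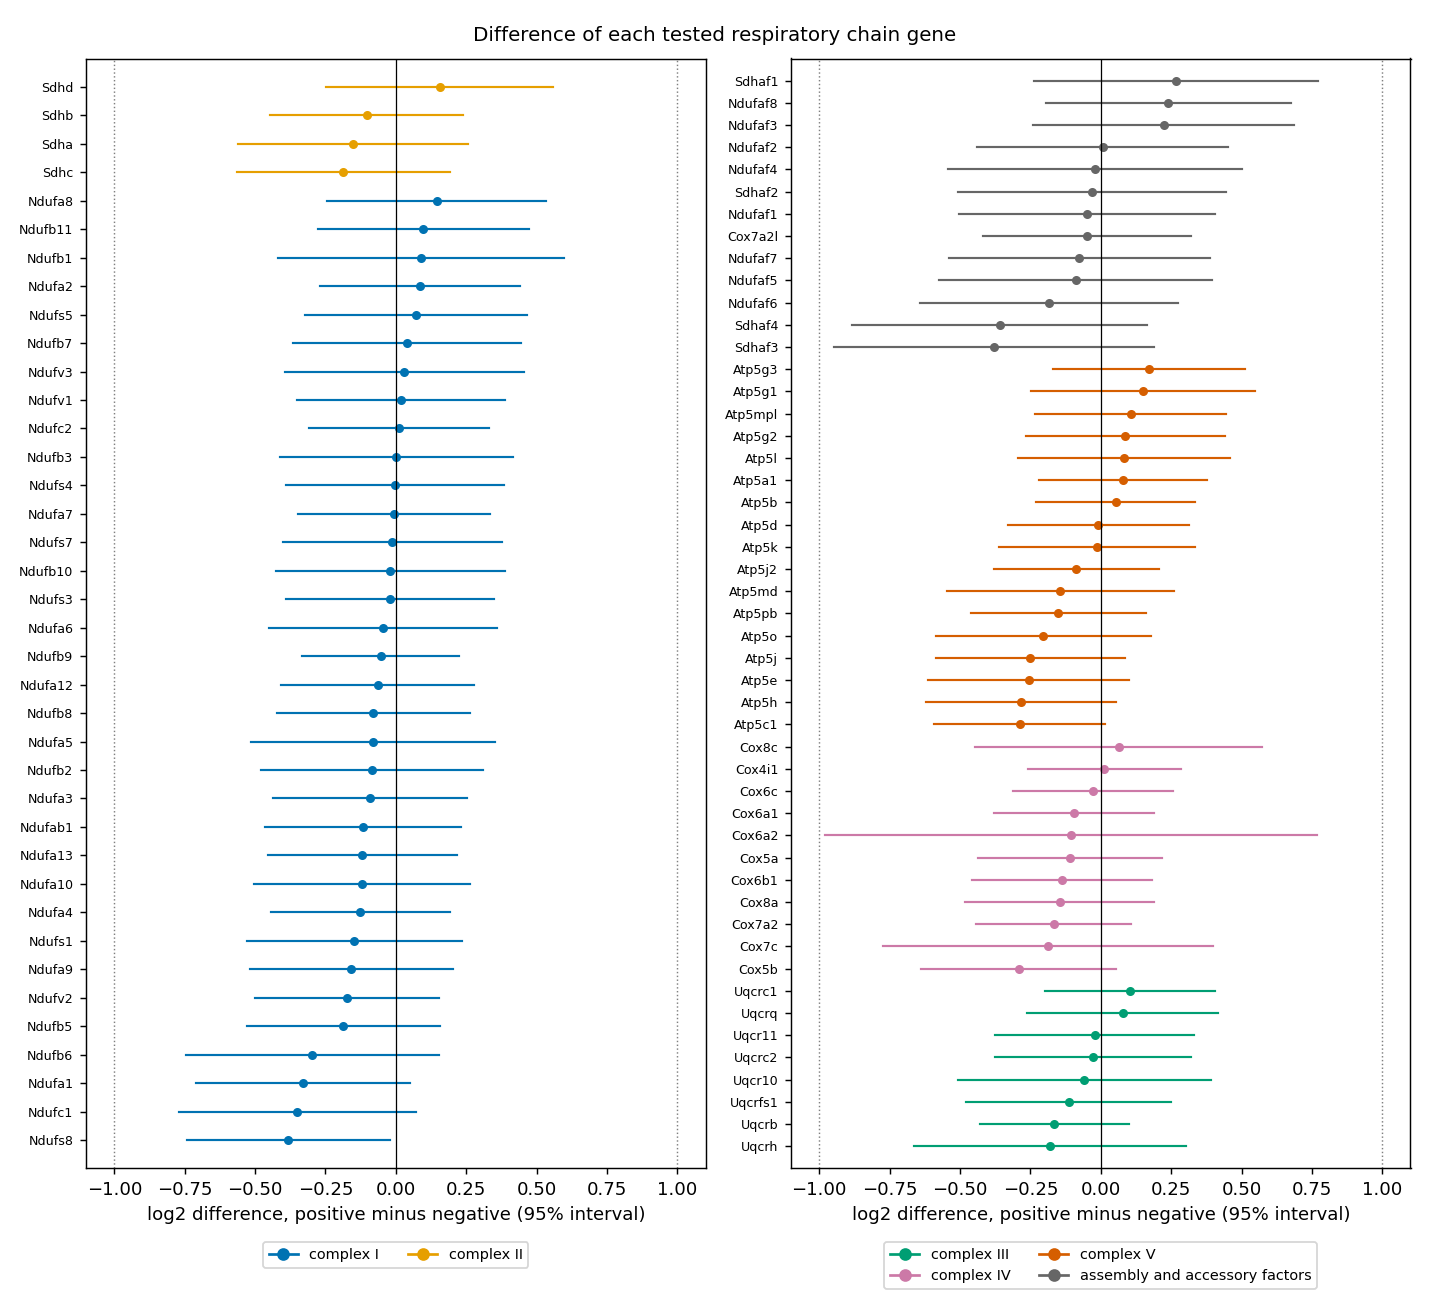
Log2 difference, positive minus negative cells (x axis), of each of the 87 tested genes, as the limma estimate (points) with its 95% interval (lines), coloured by complex; dotted lines mark 2-fold. All intervals lie between the dotted lines, and that of Ndufs8 alone does not cross 0.

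Small differences lay below 0 more often than above it. In 61 of 87 members the difference was below 0 (70.1%), where the same held for 45.7% of all genes tested, and the median was -0.06, against 0.03 over all genes. Both positive arrays lay below both negative arrays in 22 members (25.3%), where the share over all genes was 13.8%, and above them in 5 (5.75%), where it was 18.5%. The number below 0 was 69 with arrays centred on their medians, 50 with arrays scaled to one trimmed mean and 82 with no scaling, which by itself moved the median of all genes to -0.15. Measured from the median of all genes, the members' median was -0.09 with quantile normalization, -0.06 with median centring, -0.05 with one trimmed mean and -0.06 with no scaling. Across these 4 scalings 50 members stayed below 0, 5 stayed above and 32 changed side.

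Much of this shift lay in positive replicate 2 and negative replicate 1. Positive replicate 2 was the lowest of the 4 arrays in 47 of 87 members and the highest in 10, and negative replicate 1 was the highest in 44. Over all 11956 genes tested, positive replicate 2 was the lowest in 3478 and the highest in 4181. Negative replicate 1 was the highest in 2711 of them. After each gene was centred on its mean over the arrays, the median over the members was 0.03 and -0.09 in the positive arrays and 0.08 and 0.0018 in the negative arrays. The positive arrays thus lay on both sides of negative replicate 2. Without positive replicate 2 the members' median was -0.01, against 0.01 over all genes. Below 0 lay 49 of 87 (56.3%), against 47.1% of all genes. Without positive replicate 1 it was -0.11, against 0.04. With negative replicate 1 left out the members' median was -0.03, against 0.03 over all genes. Below 0 lay 51 of 87 (58.6%), against 46.3% of all genes. With negative replicate 2 left out it was -0.12, against 0.01. Over all genes tested the correlations of positive replicate 2 with the other 3 arrays, 0.968 to 0.972, were lower than any among those 3, 0.980 to 0.985.

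**Figure D2:**
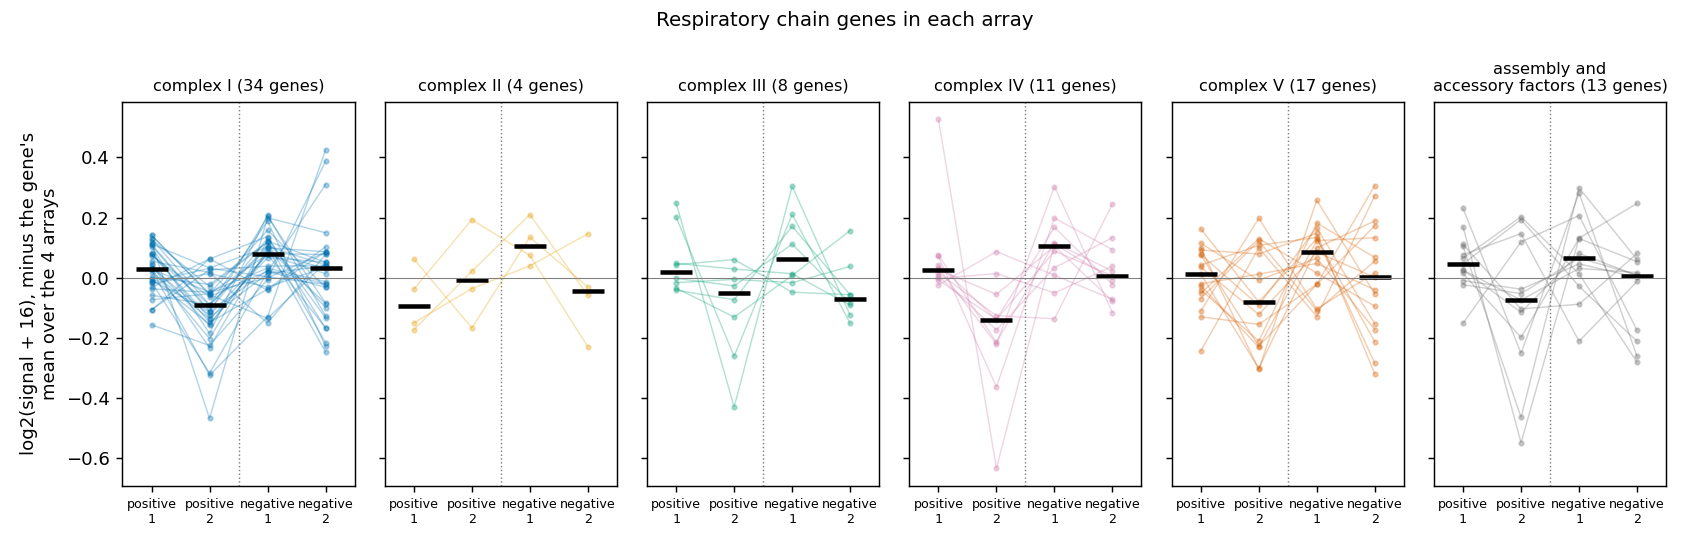
Level of each tested gene in each array, as log2(signal + 16) minus the gene's mean over the 4 arrays (y axis), with a panel for each complex; lines join the values of 1 gene and black bars are medians over the genes. The black bar of positive replicate 2 is the lowest in complexes I, IV and V and among the factors, and that of negative replicate 1 is the highest in every panel.

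The members were bright, and brightness went with the sign of small differences. Of the 87, 71 lay in the brightest of 5 equal groups of the genes tested, where the median difference of all genes was -0.0079 and 52.2% lay below 0. In the second dimmest group, which held 2 members, that median was 0.07 and 40.2% lay below 0. The part of brightness in the members' shift was not tested.

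**Figure D3:**
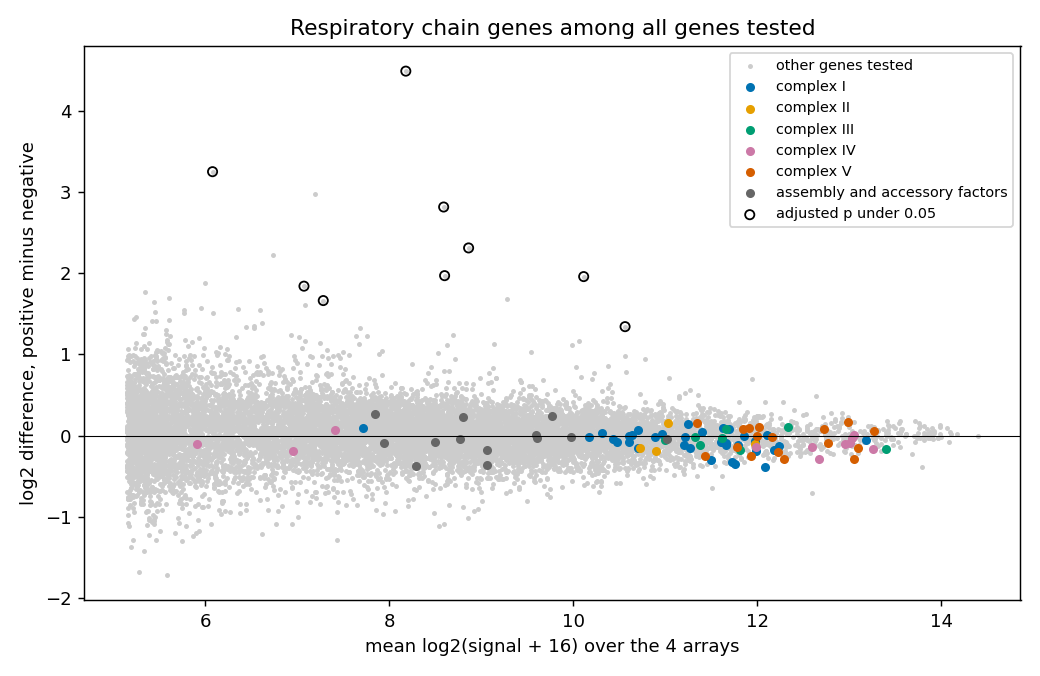
Log2 difference, positive minus negative cells (y axis), against mean log2(signal + 16) over the 4 arrays (x axis) for all 11956 genes tested (grey), the 87 respiratory chain genes (coloured by complex) and the 9 genes past an adjusted p of 0.05 (black rings). The coloured points lie between -0.38 and 0.27, most of them at the bright end, and none is ringed.

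Complex I, NADH dehydrogenase, oxidises NADH at the tip of a peripheral arm in the matrix and pumps protons through a membrane arm. Of its 34 tested subunits 24 lay below 0 and 10 above, with a median of -0.06. The median was below 0 under all 4 scalings (-0.04 to -0.23) and whichever array was left out (-0.01 to -0.12). The median of all genes was itself -0.07 with median centring and -0.15 with no scaling. The positive arrays lay below the negative arrays in 11 subunits (32.4%) and above them in 0, where over all genes tested the shares were 13.8% and 18.5%.

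Ndufs8, an iron-sulfur subunit of the peripheral arm, was the member with an unadjusted p under 0.05. Its normalized signals were 3868 and 3687 in positive cells, against 4295 and 5645 in negative cells. Both positive values were lower, and negative replicate 2 stood above the other 3. The log2 difference was -0.38 ± 0.17 (SE, n = 2 each), a fold of 1.30, with an unadjusted p of 0.0398 and an adjusted p of 0.985 by limma. It was -0.19 without negative replicate 2 and -0.57 without negative replicate 1. The 5 other Ndufs8 probe sets above the filter did not all lie on the same side. Of these, 4 gave -0.04 to -0.33, and a dim one gave 0.81 (unadjusted p 0.0148, adjusted p 0.987 by limma, every probe set tested on its own), with signals of 146 and 186 in positive cells, against 70.6 and 107 in negative cells. With the mean of its probe sets the gene's difference was -0.06.

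The other core subunits of the peripheral arm, the part that holds the flavin and iron-sulfur centres, lay close to 0 or below it. Ndufv2 had -0.17 and Ndufs1, the largest subunit, -0.15, and both had positive signals below the negative ones. Ndufs3, Ndufs7 and Ndufv1 had -0.02, -0.01 and 0.02. Further probe sets gave -0.20 and -0.19 for Ndufv1, -0.10 for Ndufs7, and -0.03 and -0.24 for Ndufv2. Over the 6 core genes the median was -0.08, and over 8 accessory genes of the same arm it was -0.03.

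In the membrane arm 11 of 18 tested accessory genes lay below 0, with a median of -0.07. The lowest was Ndufc1, with signals of 3739 and 2486 in positive cells, against 3957 and 3822 in negative cells and a difference of -0.35 ± 0.19 (SE). Positive replicate 2 was the low array. Ndufa1 had signals of 3342 and 2706 against 3423 and 4187, and a difference of -0.33 ± 0.17. The highest was Ndufa8, with 2622 and 2480 against 2603 and 2040 and a difference of 0.15 ± 0.18, which was -0.04 with no scaling. Its groups overlapped. The brightest probe set of the complex was that of Ndufb9, with 9813 and 8464 against 9378 and 9543, a difference of -0.05 that was 0.12 with one trimmed mean. Ndufa4, named with complex I but now regarded as a subunit of complex IV, had 4579 and 4644 against 5377 and 4711 and a difference of -0.13 ± 0.15. ND5, a membrane-arm subunit encoded by mitochondrial DNA and no member by its symbol, had 8778 and 9052 against 8844 and 10017 and a difference of -0.08 ± 0.13. ND5 was chosen after its values were seen.

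Complex II, succinate dehydrogenase, is also an enzyme of the citrate cycle. The flavoprotein Sdha, the iron-sulfur protein Sdhb and the membrane anchor Sdhc lay below 0 and the anchor Sdhd above it, with a median of -0.13 over the 4. That median ran from -0.29 with no scaling to -0.02 without negative replicate 1. It was -0.04 with the mean of each gene's probe sets. A second, dimmer probe set of Sdha gave 0.06. Sdhc had signals of 1706 and 1848 in positive cells, against 1948 and 2099 in negative cells, which did not overlap. Its difference was -0.19 ± 0.17 (SE), and its second probe set gave 0.14. Sdhd had 2015 and 2368 against 2179 and 1763, a difference of 0.16 ± 0.19 that was -0.03 with no scaling, and its second probe set gave -0.16. Sdhb, the brightest, had 4197 and 3579 against 4414 and 3933, a difference of -0.10 ± 0.16. No gene of this complex differed beyond the spread between arrays by limma.

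Complex III passes electrons from ubiquinol to cytochrome c. Of 8 subunits 6 lay below 0, and the median of -0.04 was 0.03 without positive replicate 2 and 0.05 without negative replicate 1. Uqcrc1, a core subunit without redox centres, had signals of 5296 and 5359 in positive cells, against 4970 and 4941 in negative cells. The replicates lay closer to each other than the groups did, and the difference was 0.10 ± 0.14 (SE, unadjusted p 0.468 by limma), or -0.01 with no scaling. Uqcrh, the hinge protein, had 4273 and 2664 against 4439 and 3295, low in the array numbered 2 of each group, and a difference of -0.18 ± 0.22. Uqcrb, the brightest, had 10561 and 9877 against 10872 and 12060 and a difference of -0.16 ± 0.12, which was 0.04 with one trimmed mean. A second Uqcrb probe set gave 0.08, with both positive arrays above both negative ones. The Rieske iron-sulfur protein Uqcrfs1 had -0.11.

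Complex IV, cytochrome c oxidase, reduces oxygen, and several of its nuclear subunits exist as ubiquitous and tissue-restricted isoforms. Of 11 tested genes 9 lay below 0, with a median of -0.11 that was 0.0015 with one trimmed mean, -0.21 without positive replicate 1 and -0.0028 without positive replicate 2. Cox5b, a zinc-binding subunit, was the lowest, with signals of 6832 and 5054 in positive cells, against 7466 and 6940 in negative cells and a difference of -0.29 ± 0.16 (SE). All 5 of its probe sets above the filter lay below 0, from -0.29 to -0.04, and the difference was -0.08 without positive replicate 2. Cox7a2, the brightest, had 9797 and 8648 against 9984 and 10701 and a difference of -0.17 ± 0.13, which was 0.0015 with one trimmed mean. Cox7c was tested on a dim probe set, with signals of 111 and 90.6 in positive cells, against 137 and 98.7 in negative cells.

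The isoforms of complex IV divided by whether they were above the filter. The ubiquitous Cox4i1 had signals of 8488 and 8584 in positive cells, against 8208 and 8727 in negative cells, a difference of 0.01 (95% interval -0.26 to 0.28), while its counterpart Cox4i2, known for induction by low oxygen in lung, was below the filter. Cox6a1 had -0.10 and Cox6b1 -0.14, and the testis isoform Cox6b2 was below the filter. The muscle isoforms Cox7a1 and Cox8b were below it too. The muscle isoform Cox6a2 passed it narrowly, with 70.8 and 22.8 in positive cells, against 49.1 and 44.0 in negative cells, so that the positive arrays stood on either side of the negative ones. Cox8a had 4022 and 3673 against 4544 and 3980, a difference of -0.15 ± 0.15, and the testis isoform Cox8c had 152 and 165 against 156 and 146. Also below the filter were Cox7b2, Ndufa4l2, a hypoxia-induced paralog of Ndufa4, and Ndufb4, a complex I subunit with 1 single-symbol probe set. Over the arrays the signals of these 7 genes ran from 0.850 to 33.9, so no difference is given for them. A probe set below the filter does not show that its gene is unexpressed. Of the muscle markers Ckm, Acta1, Myh4, Tnnt3 and Ckmt2, 2 of 5 were above the filter, and their summed signals were 90.4 and 105 in positive cells, against 103 and 110 in negative cells.

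Complex V, the ATP synthase, joins a catalytic F1 head to a proton-driven c ring, with a peripheral stalk holding the head in place. Of 17 subunits 10 lay below 0 and 7 above, and the median of -0.01 was 0.04 with one trimmed mean. In the head, the catalytic subunit Atp5b, the brightest of the complex, had signals of 9367 and 10701 in positive cells, against 9111 and 10216 in negative cells, a difference of 0.05 ± 0.13 (SE) that was -0.04 without positive replicate 2 and -0.03 without negative replicate 1. Its partner Atp5a1 had 6511 and 7390 against 6824 and 6322 and a difference of 0.08 ± 0.14. The rotating gamma subunit Atp5c1 was the lowest member of the complex, with 8570 and 6892 against 9101 and 9685. Both positive arrays were below both negative ones, and the difference was -0.29 ± 0.14 (unadjusted p 0.0616, adjusted p 0.985 by limma). Its dim second probe set gave -0.69 ± 0.37.

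The peripheral stalk and the c ring lay on opposite sides of 0 with quantile normalization, which did not hold under every setting. The stalk genes Atp5h, Atp5j, Atp5o and Atp5pb had -0.28, -0.25, -0.20 and -0.15, and Atp5pb had 0.0066 with one trimmed mean. For Atp5h the signals were 4561 and 4480 in positive cells, against 4914 and 6176 in negative cells. A second Atp5h probe set gave -0.04, a second one of Atp5o gave 0.19 and a second one of Atp5pb gave 0.0015. The genes Atp5g1, Atp5g2 and Atp5g3, which encode the same mature c subunit, had 0.15, 0.09 and 0.17, and with no scaling the first and second had -0.03. A dim second probe set of Atp5g2 gave -0.09. Atp5g3 was the highest of the complex, with 8648 and 8570 against 8992 and 6496, so negative replicate 2 was low and negative replicate 1 was above both positive arrays. The Atp5g3 difference was -0.06 without negative replicate 2. The difference between stalk and ring was not tested.

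The assembly and accessory factors, which help to build the complexes, were dimmer. Of 13 tested, 9 lay below 0, with a median of -0.05. Sdhaf1, which assists insertion of iron-sulfur clusters into complex II, had signals of 225 and 249 in positive cells, against 216 and 173 in negative cells, the highest difference of any member at 0.27 ± 0.23 (SE). Sdhaf3, another complex II factor, had 335 and 198 against 326 and 355, a difference of -0.38 ± 0.26 that rested on positive replicate 2 and was -0.02 without it. Sdhaf4 had 558 and 371 against 640 and 541, a difference of -0.36 ± 0.24. The complex I factors Ndufaf3 and Ndufaf8 had 0.22 and 0.24, and with Sdhaf1 they were the 3 members above 0 in all 17 settings run. Over all members, 26 lay below 0 in every setting that tested them. Some of these settings change only the test and not the differences. A dimmer second probe set of Ndufaf8 gave -0.03. Cox7a2l, a factor of respiratory supercomplexes and the brightest here, had 2101 and 1961 against 2110 and 2090 and a difference of -0.05.

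Probe sets of the same gene gave a measure of technical spread. For 50 members more than 1 probe set was above the filter, and in 24 of them all lay on the same side of 0. The median range between probe sets of a gene was 0.20 on the log2 scale. None of the 166 member probe sets was called when each was tested on its own, and 2 had an unadjusted p under 0.05 by limma, both of Ndufs8.

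**Figure D4:**
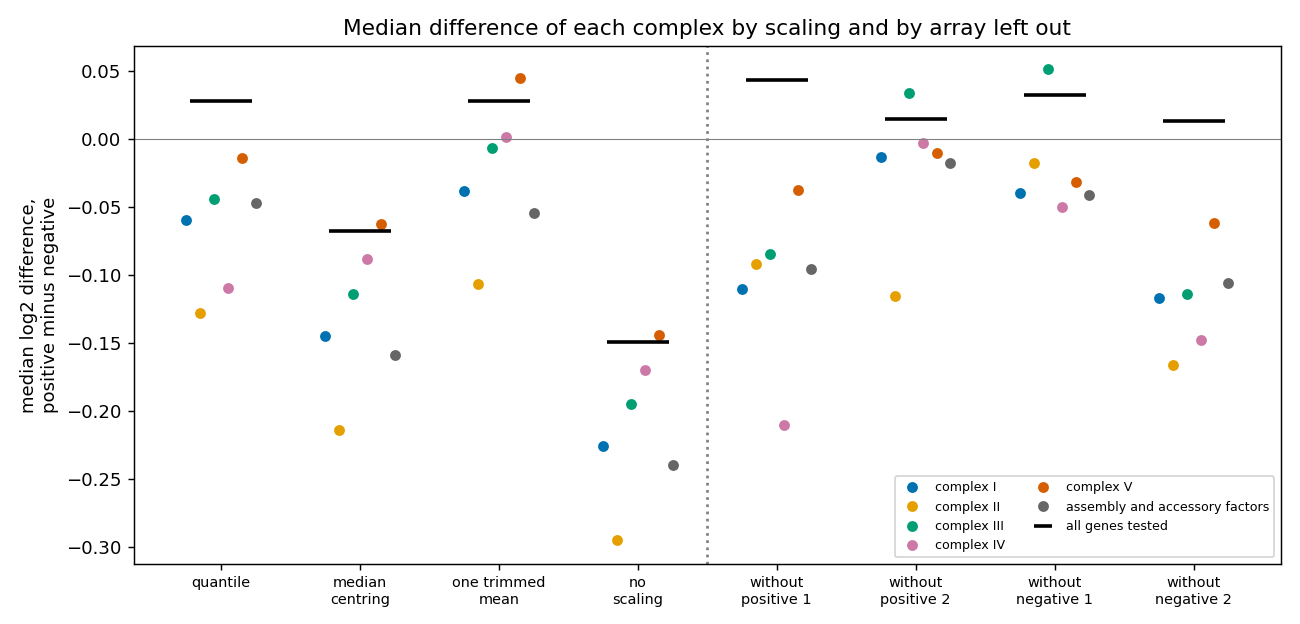
Median log2 difference, positive minus negative cells (y axis), of the tested genes of each complex (points) and of all genes tested (bars) under 4 scalings and with each array left out (x axis). The medians of complexes IV and V are above 0 with one trimmed mean, and that of complex III is above 0 without positive replicate 2 or negative replicate 1.

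Of 190 tested genes around the respiratory chain, in 7 lists that share Timmdc1, limma called 0. At an unadjusted p under 0.05 there were 2 lower and 0 higher by limma, where 1.76% of all genes tested were lower and 2.68% higher, so the lists hold no more than the general share. The 2 genes are named by the rule for these lists. Ppargc1b, the coactivator PGC-1 beta, had signals of 88.4 and 37.8 in positive cells, against 144 and 144 in negative cells. The negative arrays were alike and the positive arrays both lower and apart. The log2 difference was -1.09 ± 0.32 (SE; unadjusted p 0.00549, adjusted p 0.867 by limma), and it was -0.62 without positive replicate 2 and -1.57 without positive replicate 1. Gabpa, the DNA-binding subunit of GABP, had 1133 and 728 against 1196 and 1408 and a difference of -0.51 ± 0.23 (unadjusted p 0.0489, adjusted p 0.985 by limma). The Gabpa difference was -0.19 without positive replicate 2, and its second probe set gave -0.20. Members with the GABP motif in their promoter windows had a median difference of -0.10 over 22 tested genes, and those with a window lacking it -0.08 over 51. Those with the NRF1 motif had -0.02 over 6. Nrf1 itself had -0.13, and Tfam, which packages and transcribes mitochondrial DNA, 0.01.

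The other lists lay close to 0. Of 5 genes with the remaining subunits and carriers, 3 lay below 0 (median -0.03), among them cytochrome c, Cycs, at -0.03, while the cytochrome c1 subunit Cyc1 had 0.04. Other assembly factors had 19 of 31 below 0 (median -0.04), citrate cycle and pyruvate dehydrogenase genes 9 of 16 (-0.05), ubiquinone synthesis and other electron donors 10 of 16 (-0.03), and genes of mitochondrial DNA transcription and maintenance 8 of 16 (-0.01). Import and inner membrane genes had 15 of 31 below 0 (median 0.0034). Mitochondrial ribosomal proteins had 28 of 76 below 0 and a median of 0.07. These lists were not recomputed under the other scalings, and the difference between lists was not tested.

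Markers of other cell types were measured beside these genes. The summed normalized signals of 7 macrophage markers were 497 and 658 in positive cells and 437 and 406 in negative cells, with 5 above the filter. Those of 6 fibroblast markers were 132 and 143 against 176 and 166, with 3 above the filter. Those of 5 endothelial markers were 86.6 and 91.6 against 41.8 and 45.7, with 0 above the filter. Neither of the 2 adipocyte markers on the array and 1 of 4 lymphocyte markers passed it. The sums of 5 epithelial markers, all above the filter, were 26720 and 28597 against 21982 and 26917. The part of these levels in the differences above was not tested. In bulk RNA fewer cells of a type and less RNA per cell cannot be told apart.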

How the data were processed

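In all 4 arrays were used, 2 per group, assigned from the sample titles. The deposited values are linear intensities, 1 per probe set and array, per the file header and values. GCOS is named in the submitters' processing notes without a role, and the summary method, background correction and scaling are, in the sources used here, not given. The authors' deposited intensities had 2% trimmed means of 237 and 220 (positive) and 196 and 345 (negative), so arrays were quantile normalized. Of 45101 probe sets, 64 controls were removed after normalization. Values were transformed as log2(value + 16), and probe sets with a mean under the 40th percentile (log2 value 5.15) were left out. Groups were compared over 11956 genes with limma 3.58.1 (R 4.3.3), using two-sided moderated tests whose prior variance followed intensity, adjusted by Benjamini-Hochberg. The procedure was tested on simulated data. The number of arrays limits the precision.

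Gene names came from the platform's annotation, and all 94 gene numbers matched RefSeq. Named genes were, per complex, the highest, lowest and brightest member, members with an unadjusted p under 0.05, isoforms, Esrp1 and Cd44, and up to 3 genes per direction and pathway list with an unadjusted p under 0.05. Other genes were named after their values were seen. Members and lists were chosen with earlier results of these data known. Alternatives were 3 other scalings, pseudocounts of 1 and 64, no filter or one at the 60th percentile, averaging the probe sets of each gene, probe sets ending in _x_at or _s_at left out, no intensity trend, a robust prior, a block for the replicate number, and each array left out. Probe set choice and filter stayed as in the main setting except where they were the alternative. Promoter sequences are from RefSeq, GRCm38.p6.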

Additional observations from a re-analysis of the deposited data

How the results depend on the processing

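No respiratory chain gene was called in any of the 16 alternative settings. The members' count with an unadjusted p under 0.05 was 1 with the main setting, 0 with median centring, one trimmed mean, no scaling, no filter, averaged probe sets or no intensity trend, and 4 with the replicate number as a block (Atp5c1, Ndufs8, Ndufc1 and Cox5b, all lower), where 6.43% of all genes passed, against 4.45% with the main setting. With an array left out it was 0 to 7. It was 6 without positive replicate 1, where 11.5% of all genes passed, 7 (6 lower, and Atp5g3 higher) without negative replicate 1, where 5.82% passed, and 0 without positive replicate 2, where 2.84% passed. The members' median ran from -0.12 to -0.01 with an array left out and was -0.21 with no scaling. Of 96 recomputed medians of a complex or of the factors, 82 moved by less than the spread between replicates. Dropping the intensity trend, a robust prior and the replicate block leave each difference as it was, so their medians could not move.

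Over all genes tested, the 9 calls became 25 with median centring (20 higher and 5 lower, where the main setting had 9 and 0), 3 with no scaling, 3 with no filter, 2 without the intensity trend, 18 with the replicate number as a block and 6 to 21 with an array left out. Arrays of the same number share only a number: the correlation of the replicate differences between groups was 0.12 over all genes and 0.11 over the members. The block changed no member's call. A difference under the intervals given could not be detected with 2 arrays per group.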
